A study of Cyanidioschyzon merolae strain 10D with 6 samples.

Results

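The copies described here are the long terminal repeat (LTR) copies of the interior of the *Cyanidioschyzon merolae* chromosomes that belong neither to the Gypsy superfamily nor to rnd-1_family-5, the largest Copia repeat family. With earlier results of these data known, members were chosen by annotation and position, without a rule on counts. They are nuclear copies of the deposited transposable element (TE) annotation with the class LTR that start and end at least 20000 bp from both ends of their chromosome, and they number 455 of 5074 annotated TE copies. RNA was compared between the Cme(z)-1 mutant line, a loss-of-function mutant of Polycomb Repressive Complex 2 (PRC2), and the 10D wild type, with 3 libraries each. C. merolae is a small red alga, made of a single cell, from hot and acidic springs, and cells of either genotype grew in aerated liquid culture at 42 °C and a pH between 2.5 and 3.0 in white light that stayed on (80 µmol/m2/s). A single mutant line was sequenced, so loss of PRC2 and any further difference in that line cannot be told apart, and the labels do not say whether replicates were separate cultures.

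Few of these LTR copies were called as different between mutant and wild type. Of 183 copies with enough counts to test, 2 rose and none fell in edgeR's quasi-likelihood test at a Benjamini-Hochberg adjusted p under 0.05, a share of 1.09%, whereas 7.10% of all tested TE copies rose and 1.04% fell, and 3.40% of all tested genes and TE copies rose and 1.54% fell. The raised copies overlap each other at 1 place on chromosome 19. For 272 of the 455 copies the counts were too few for a test. In 100 of the 183 tested copies the 95% interval of the fold change reached a 2-fold change. None of the tested sums over a repeat family or a superfamily passed the test, and for the families that hold most copies the 95% interval of the log2 fold change (mutant over wild type) ran from -0.30 to 0.38 and from -0.31 to 0.33.

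PRC2 is a histone methyltransferase complex that places a methyl mark on lysine 27 of histone H3, and E(z) is its catalytic subunit. The mark is best known for keeping developmental genes silent in animals and plants, and in several unicellular organisms it also lies on transposable elements. LTR elements are retrotransposons that move through an RNA copy, which is transcribed from a promoter in one terminal repeat. Recombination between the repeats of an element can leave a single LTR behind, so that short LTR copies without coding sequence are common in many genomes. Copia is one of the main superfamilies of these elements, told from Gypsy by the order of its coding domains.

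The targeted gene was read first as a check of the labels. CMQ156C, the E(z) gene, was listed with 0 counts in every mutant library (n = 3) and 1776, 1533 and 1770 counts in the wild-type libraries; a count of 0 allows up to 0.363 counts per 1000000 of the scaled library size (CPM) in the shallowest mutant library, with 3 counts as the limit. Total counts were 10754544, 8292567 and 10089859 in the mutant libraries and 9188335, 8182485 and 7860491 in the wild-type libraries. TE copies of all kinds took 10.1% to 11.5% of the counts in the mutant and 9.05% to 9.38% in the wild type.

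The 455 copies fall into 13 repeat families under 2 superfamily labels. Copia holds 274 copies and the label Unknown holds 181. The Copia family rnd-1_family-34 has 246 copies and the Unknown family rnd-1_family-35 has 159, so that these families make up 89.0% of the copies and carried 95.3% of their counts. The Unknown family rnd-1_family-67 follows with 21 copies and the Copia family rnd-1_family-129 with 12, and each of the other 9 families has between 1 and 4. All copies are short, from 81 to 731 bp with a median of 191 bp. Copies of rnd-1_family-34 had a median length of 350 bp and a maximum of 366 bp, and those of rnd-1_family-35 a median of 154 bp and a maximum of 170 bp. They lie on all 20 chromosomes, with 9 to 47 copies on each.

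Copies of the main families often share bases in the annotation. In 106 places a copy of rnd-1_family-34 and a copy of rnd-1_family-35 overlap. They shared a strand in all 106 places, the rnd-1_family-35 copy lay on the 3′ side in all 106, and the overlap had a median of 110 bp with quartiles of 108 and 111 bp. Copies of a further family with another class label lie beside them. Of the 246 rnd-1_family-34 copies, 150 (61.0%) overlap a copy of rnd-1_family-32, which the annotation calls a DNA transposon of the TcMar-ISRm11 type. That copy lay on the opposite strand and on the 5′ side in all 150 cases, with a median overlap of 209 bp. Both partners overlap 61 of the rnd-1_family-34 copies, and neither overlaps 51. In all, 158 of the 455 LTR copies share bases with an annotated DNA transposon, so that the same bases carry an LTR and a DNA label. Merging members that overlap one another leaves 349 places. Copies that abut without a shared base still count apart there, such as TE_homo_1560 and TE_homo_1561 on chromosome 9.

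**Figure D1:**
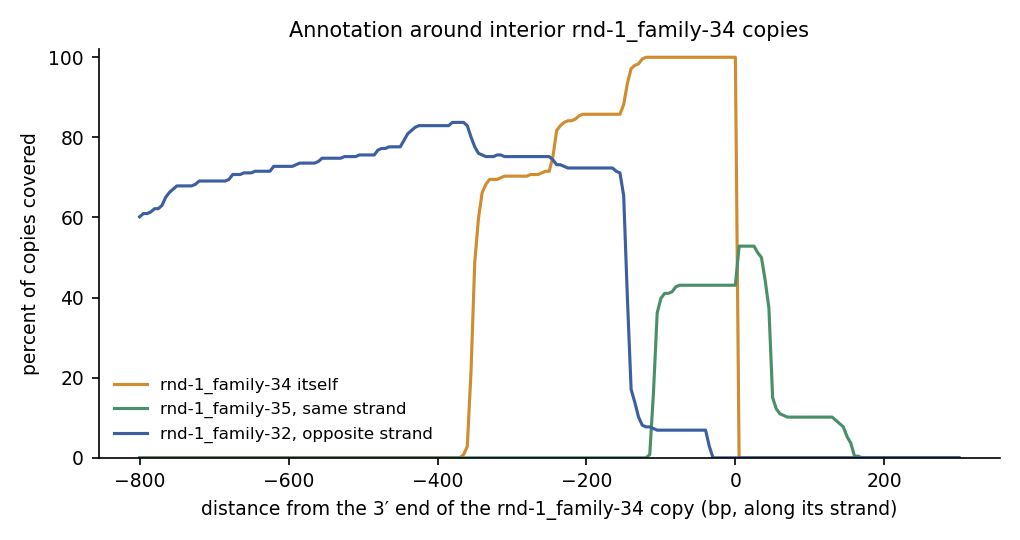
Percent of the 246 interior rnd-1_family-34 copies covered at each position by their own annotation, by rnd-1_family-35 on the same strand and by rnd-1_family-32 on the opposite strand, against the distance from the 3′ end of the copy in bp along its strand. The rnd-1_family-35 track is highest at 52.8%, just past the 3′ end, and the rnd-1_family-32 track at 83.7%, upstream of the 5′ end of full-length copies.

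The copies also have a common orientation towards genes. Of the 430 copies that overlap no gene, 370 (86.0%) had their nearest gene beyond their own 3′ end. The same share was 54.0% of 658 interior Gypsy copies and 50.5% of 1142 interior rnd-1_family-5 copies. It held for rnd-1_family-34 in 212 of 242 copies and for rnd-1_family-35 in 145 of 155, but for rnd-1_family-67 in 7 of 19. The nearest gene turned its 3′ end to the copy in 241 of the 430 cases (56.0%), against 23.7% for interior Gypsy copies and 40.8% for interior rnd-1_family-5 copies. Such shares were not tested, since overlapping copies count the same place more than once. The median distance to the nearest gene was 554 bp, and 25 copies overlap a gene, among them all 12 copies of rnd-1_family-129.

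RNA over most of these copies was scarce. Over the 6 libraries 65 of the 455 copies had no count at all and the median copy had 26 counts. No count was found in the 3 mutant libraries for 93 copies and in the 3 wild-type libraries for 101. At least 1 count in each mutant library with none in the wild type was seen for 5 copies (1.10%), and the reverse for 1 (0.220%), beside 0.828% and 0.118% of all 5074 TE copies. The largest of the 5 was TE_homo_3304, a rnd-1_family-34 copy of chromosome 16 (595791 to 596131), with 5, 11 and 9 counts in the mutant and 0, 0 and 0 in the wild type; it lay below the filter on low counts and was not tested. The filter kept 183 copies (40.2%), namely 84 of rnd-1_family-34, 87 of rnd-1_family-35, 5 of rnd-1_family-67 and 7 of 6 small families, and the 20 copies with most counts held 46.4% of all counts on members. Those 183 are not a sample of all 455, since a copy had to be read to be tested. Among tested copies the level per length, averaged over the 6 libraries, ran from 3.53 to 741 CPM per kb, with a median of 21.2 CPM per kb for rnd-1_family-34 and 47.2 CPM per kb for rnd-1_family-35.

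Where the main families overlap, the counts lay mostly on rnd-1_family-35. In the 106 overlapping pairs its copies held 41250 counts over the 6 libraries and the rnd-1_family-34 copies held 11961. Per length the rnd-1_family-35 copy was higher in 78 pairs and the rnd-1_family-34 copy in 21, and 7 pairs had no counts. Both copies of a pair were tested in 13 places, the rnd-1_family-35 copy alone in 43, the rnd-1_family-34 copy alone in 6 and neither in 44. Among rnd-1_family-34 copies, 18.0% were tested where both partners overlap and 17.8% where rnd-1_family-35 alone does. The share was 39.3% where rnd-1_family-32 alone overlaps and 58.8% where neither does. These classes go by shared bases, so a rnd-1_family-35 copy that only abuts, as TE_homo_781 does TE_homo_780, is not counted as a partner. The classes also differed in median length, at 354, 218, 351 and 243 bp in the same order. How reads on bases shared by several annotated copies were counted is not given in the sources used here, and its part in this split was not tested.

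The raised copies were TE_homo_4134 of rnd-1_family-34 (Copia; chromosome 19, 263492 to 263843, minus strand, positions as in the deposited annotation) and TE_homo_4133 of rnd-1_family-35 (263447 to 263600, minus strand), which form one of the overlapping pairs. TE_homo_4134 had 29, 28 and 28 counts in the mutant libraries and 0, 2 and 1 in the wild-type libraries. The summed counts, scaled for library size, differed 23.5-fold with an exact 95% counting interval of 7.78 to 116 (adjusted p = 0.0043 in edgeR). TE_homo_4133 had 25, 15 and 21 counts in the mutant and likewise 0, 2 and 1 in the wild type, 16.9-fold higher in the mutant with a counting interval of 5.51 to 84.1 (edgeR adjusted p = 0.0098). All mutant libraries lay above all wild-type libraries for either copy. The levels remained low even in the mutant, at 2.90 ± 0.426 CPM for TE_homo_4134 and 2.03 ± 0.261 CPM for TE_homo_4133, against 0.128 ± 0.128 CPM for either in the wild type (SD, n = 3 each). Counting intervals cover counting error only, and the pair is 1 place whose reads may enter both rows. The call of TE_homo_4133 was lost without mutant replicate 1 (edgeR adjusted p = 0.051), and that of TE_homo_4134 held with each library left out in turn. The size of the change rested on the few wild-type counts. The fitted log2 fold change of TE_homo_4134 was 4.42, or 3.82 without wild-type replicate 1 and 5.31 without wild-type replicate 2, and that of TE_homo_4133 was 3.92, or 3.32 and 4.81 without the same libraries.

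Next to this pair 2 copies of another class also rose. TE_homo_4135, a rnd-1_family-32 copy on the opposite strand that overlaps TE_homo_4134 (263639 to 264167), averaged 28.3 ± 0.432 CPM in the mutant and 13.3 ± 3.45 CPM in the wild type (log2 fold change 1.09, SE 0.22, edgeR adjusted p = 0.021). TE_homo_4136, a Harbinger-type DNA transposon copy next to it (264194 to 265012), averaged 54.1 ± 2.48 CPM in the mutant and 21.3 ± 3.55 CPM in the wild type (log2 fold change 1.34, SE 0.15, adjusted p = 0.0012). On the other side the Harbinger copy TE_homo_4131 had a log2 fold change of 1.41 (SE 0.35) and missed the threshold (adjusted p = 0.059), and TE_homo_4132 had overlapping groups (-0.095, SE 0.61). The annotated genes on either side did not pass. CMS102C, the nearest gene, lies 991 bp from TE_homo_4134 and somewhat closer to TE_homo_4133. It had 62.8 ± 6.19 CPM in the mutant and 78.7 ± 17.6 CPM in the wild type (edgeR adjusted p = 0.38). CMS105C had 58.9 ± 13.9 CPM in the mutant and 72.6 ± 11.8 CPM in the wild type (adjusted p = 0.49). The kit gave no strand, so RNA of the LTR pair and RNA that runs in from TE_homo_4135 or TE_homo_4136 cannot be told apart.

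**Figure D2:**
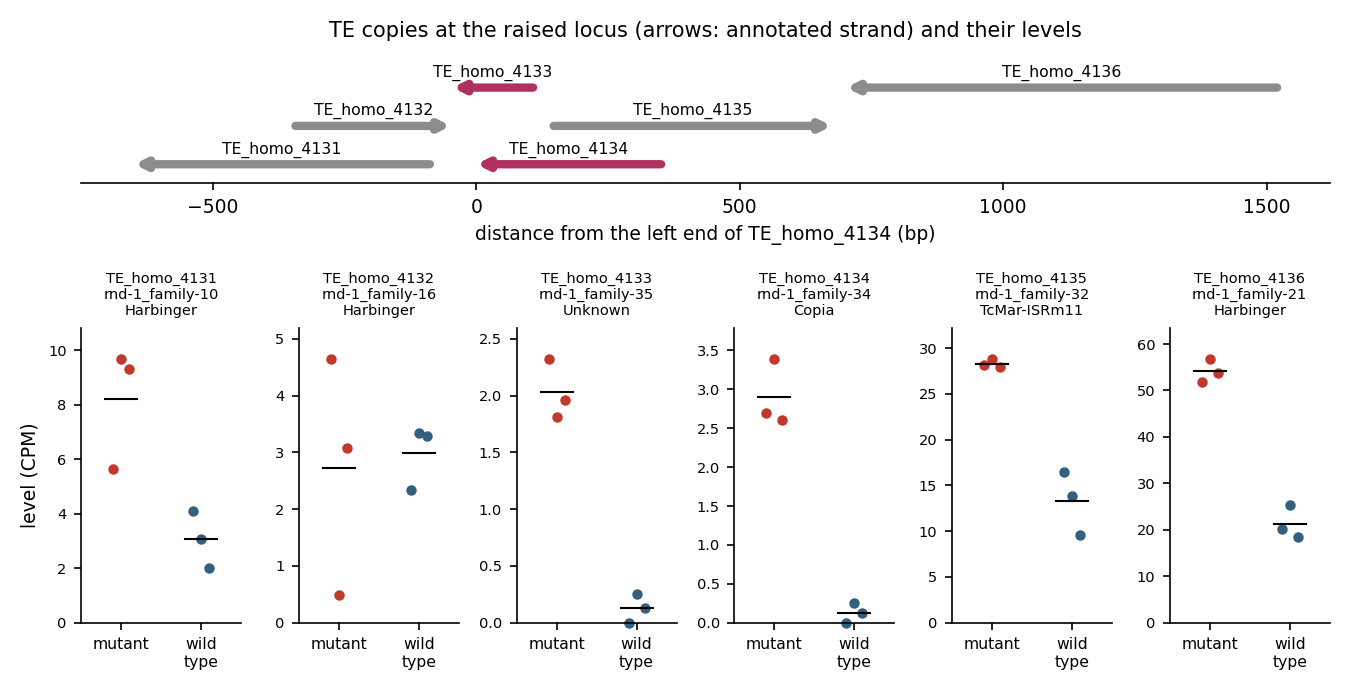
Top, annotated TE copies around the raised pair (in crimson; other copies in grey), with arrows along the annotated strand, against the distance in bp from the left end of TE_homo_4134. Bottom, level in CPM of each copy in the 3 mutant (red) and 3 wild-type (blue) libraries, with the mean as a line. Each panel has its own scale from 0; the groups lie apart for 5 of the 6 copies and overlap for TE_homo_4132.

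The other 181 tested copies did not pass in edgeR. No copy was called lower, where 9 lower copies had an unadjusted p under 0.05, DESeq2 called 4 copies lower (2.19%, beside 2.53% of all TE copies) and limma voom called 0 (beside 1.01%). Over all 183 tested copies 92 had a positive and 91 a negative log2 fold change, with a median of 0.0083, beside a median of 0.067 over all tested TE copies and -0.011 over all tested rows. All mutant libraries lay above all wild-type libraries in 21 of the 183 copies. This share of 11.5% stands beside 19.0% of all tested TE copies and 12.1% of all tested rows. The mutant libraries all lay below in 12 copies, a share of 6.56% beside 8.18% of tested TE copies and 11.1% of all tested rows. At an unadjusted p under 0.05 in edgeR, 13 copies were higher (7.10%), beside 15.9% of tested TE copies and 9.27% of all tested rows. Lower were 9 copies (4.92%), beside 5.69% of tested TE copies and 8.23% of all tested rows. For 83 copies the 95% interval of the fold change lay inside a 2-fold change in either direction, and for the other 100, the raised pair included, it reached such a change or beyond.

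Of the copies with an unadjusted p under 0.05, 11 had a higher mutant level without a call, with log2 fold changes from 0.32 to 2.37, and 9 a lower one, from -1.18 to -0.53. The following were singled out after their values were seen. TE_homo_1435, the one tested copy of rnd-1_family-33 (chromosome 9, 328429 to 328650), had 15, 13 and 17 counts in the mutant and 4, 3 and 0 in the wild type (log2 fold change 2.37, SE 0.66, edgeR adjusted p = 0.088). The groups did not overlap, at a low level throughout. TE_homo_696 of rnd-1_family-34 on chromosome 5 had 32, 13 and 21 counts in the mutant and 8, 3 and 0 in the wild type (2.28, SE 0.71, adjusted p = 0.12). Among the lower values, TE_homo_3401 of rnd-1_family-34 on chromosome 17 had 25, 30 and 32 counts in the mutant and 61, 40 and 66 in the wild type (-1.18, SE 0.31, adjusted p = 0.073). TE_homo_1684 of rnd-1_family-35 on chromosome 10 had 21, 20 and 23 counts in the mutant and 42, 43 and 32 in the wild type (-1.13, SE 0.30, adjusted p = 0.071), the lowest adjusted p among the copies that were not called.

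**Figure D3:**
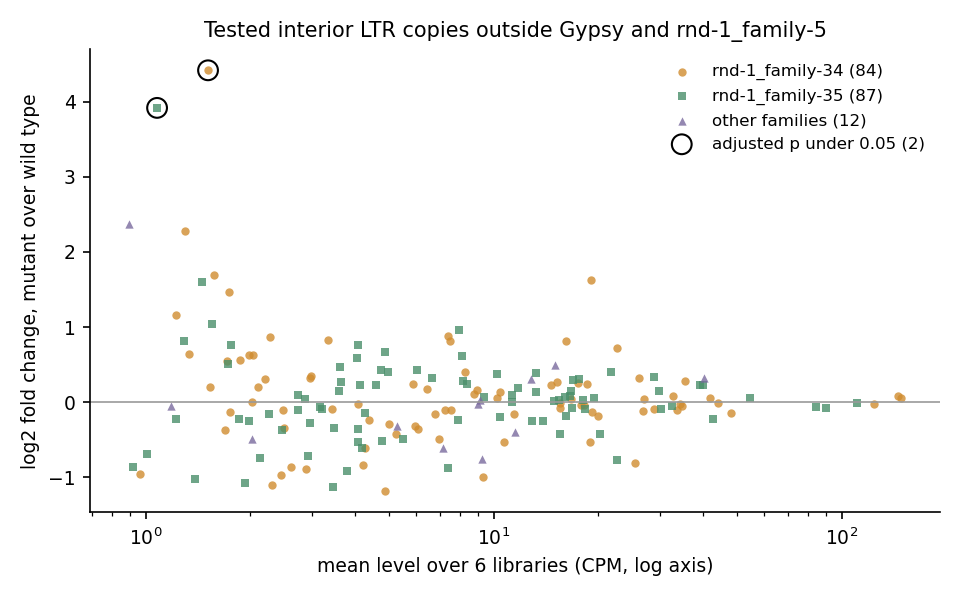
Log2 fold change (mutant over wild type) of the 183 tested copies against their mean level in CPM over the 6 libraries on a log axis, by repeat family. The circled points are the 2 raised copies of chromosome 19, both at a low level; most other points lie within 1 of the zero line.

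In one overlapping pair, singled out after its values were seen, the counts differed widely between replicates of a group. TE_homo_1024 of rnd-1_family-34 (chromosome 7, 294840 to 295205) had 181, 208 and 476 counts in the mutant and 244, 0 and 4 in the wild type. Its partner TE_homo_1023 of rnd-1_family-35 (294810 to 294955) had 249, 148 and 98 counts in the mutant and 205, 216 and 274 in the wild type. Wild-type replicate 1 held nearly all wild-type counts of TE_homo_1024, and mutant replicate 3 was the highest library for TE_homo_1024 and the lowest for TE_homo_1023. Neither passed (edgeR adjusted p = 0.55 and 0.26), but without wild-type replicate 1 TE_homo_1024 was called as raised (adjusted p = 0.0046). Summed over the pair the counts were 430, 356 and 574 in the mutant and 449, 216 and 278 in the wild type, with overlapping groups (log2 fold change 0.27, SE 0.22, adjusted p = 0.59). Over the 13 pairs with both copies tested the fold changes had a Pearson correlation of 0.78, or 0.34 over the 12 pairs without the raised one, and the same sign in 9. This is a description, since the copies of a pair share bases, libraries and possibly reads.

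The most abundant copies differed by less than the spread between replicates. TE_homo_53 of rnd-1_family-34 (chromosome 1, 125476 to 125827) had the highest mean level, with 162, 139 and 152 CPM in the mutant libraries and 137, 160 and 139 CPM in the wild-type libraries. The groups overlapped (log2 fold change 0.060, 95% interval -0.18 to 0.30, edgeR adjusted p = 0.84). TE_homo_3626 of the same family on chromosome 17 averaged 149 ± 35.4 CPM in the mutant and 141 ± 22.5 CPM in the wild type, and TE_homo_2688 on chromosome 14 averaged 123 ± 33.7 CPM in the mutant and 124 ± 45.7 CPM in the wild type (SD, n = 3 each). Of rnd-1_family-35, TE_homo_1561 on chromosome 9 had the highest level per length of all tested copies, 741 CPM per kb over the 6 libraries. It averaged 110 ± 3.72 CPM in the mutant and 111 ± 32.4 CPM in the wild type. TE_homo_4833 on chromosome 20 averaged 88.2 ± 15.03 CPM in the mutant and 92.7 ± 5.93 CPM in the wild type. For these 5 copies the 95% interval of the log2 fold change was narrowest for TE_homo_53 and widest for TE_homo_2688 (-0.64 to 0.60), and edgeR adjusted p lay between 0.84 and 0.98.

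Summing the members of each repeat family keeps reads that several copies of a family could share in 1 row. The 246 copies of rnd-1_family-34 together had 1373, 1595 and 1257 CPM in the mutant libraries and 1290, 1495 and 1331 CPM in the wild-type libraries. The groups overlapped, and replicate 2 was the highest library in either group. The log2 fold change was 0.038 with a 95% interval of -0.30 to 0.38 (SE 0.15, edgeR adjusted p = 0.94). The 159 copies of rnd-1_family-35 had 1107, 1360 and 1109 CPM in the mutant and 1160, 1244 and 1152 CPM in the wild type, again with overlap (0.0083, interval -0.31 to 0.33, adjusted p = 0.99). The 21 copies of rnd-1_family-67 had 545, 402 and 423 counts in the mutant and 315, 421 and 322 counts in the wild type, or 46.2 ± 5.84 CPM in the mutant and 43.3 ± 9.70 CPM in the wild type (0.094, interval -0.32 to 0.50, adjusted p = 0.85). The sums of the main families rested on many copies, the highest of which gave 10.7% of the rnd-1_family-34 sum and 9.29% of the rnd-1_family-35 sum.

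**Figure D4:**
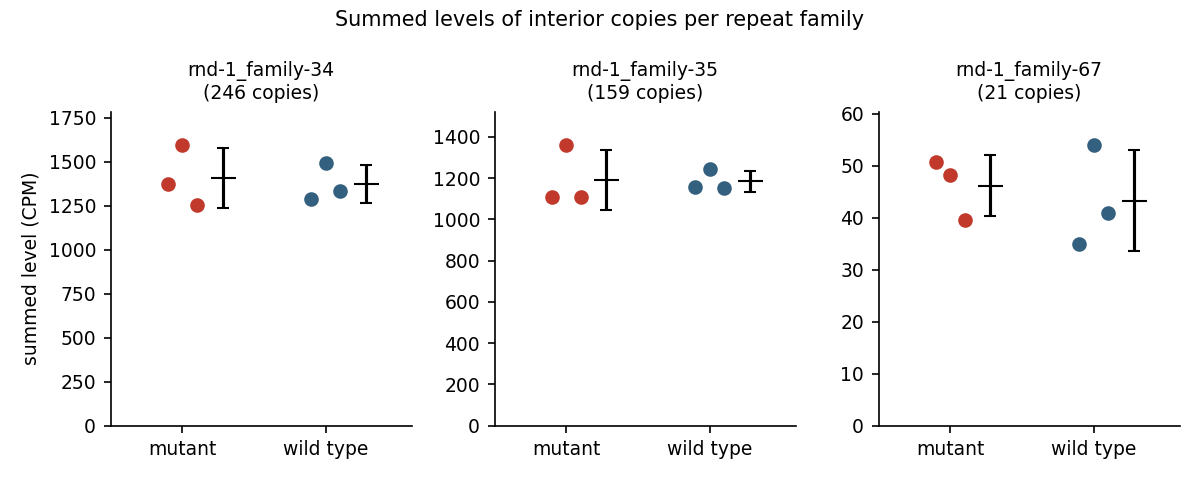
Summed level in CPM of all interior copies of rnd-1_family-34, rnd-1_family-35 and rnd-1_family-67 in each of the 3 mutant (red) and 3 wild-type (blue) libraries, with mean and SD in black; each panel has its own scale from 0. Mutant and wild-type points overlap in all 3 families.

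Of the small families, 6 had enough counts for their sum to be tested and none was called. In all, 0 of 9 tested family sums passed, 2 had an unadjusted p under 0.05 in the edgeR test, and DESeq2 and limma voom also called 0; 5.25% of all rows of that fit were called. The sums with an unadjusted p under 0.05 were higher in the mutant. Family rnd-1_family-33 (3 copies) averaged 2.00 ± 0.183 CPM in the mutant and 1.09 ± 0.197 CPM in the wild type (log2 fold change 0.87, SE 0.36, adjusted p = 0.25). Family rnd-1_family-70 (3 copies, nearly all counts on TE_homo_2637) averaged 44.5 ± 0.873 CPM in the mutant and 35.8 ± 4.32 CPM in the wild type (0.31, SE 0.13, adjusted p = 0.27). The 12 copies of rnd-1_family-129, which all overlap genes, had 4 counts in the mutant and 2 in the wild type over all libraries. The single copies of rnd-1_family-51 and rnd-5_family-3662 had no counts in any library.

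The sums by superfamily were not called either. They largely repeat the family sums, since rnd-1_family-34 holds most counts of Copia and rnd-1_family-35 most counts of Unknown. The 274 Copia copies had 1462, 1682 and 1333 CPM in the mutant libraries and 1374, 1565 and 1423 CPM in the wild-type libraries (log2 fold change 0.038, SE 0.15, 95% interval -0.30 to 0.37, edgeR adjusted p = 0.94). The 181 copies labelled Unknown had 1158, 1408 and 1148 CPM in the mutant and 1195, 1298 and 1193 CPM in the wild type (0.011, SE 0.14, interval -0.31 to 0.33, adjusted p = 0.98). Groups overlapped for either superfamily, and 5.24% of all rows of that fit were called. Among tested copies 1 of 91 Copia copies and 1 of 92 Unknown copies rose, which are the partners of the chromosome 19 pair.

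All 455 copies together took 0.278% ± 0.0282 of the counts in the mutant and 0.262% ± 0.0107 in the wild type (SD, n = 3 each). The groups overlapped (two-sided exact permutation p = 0.6, where 3 against 3 libraries can give 0.1 at the least). The difference was 0.0162 percentage points, or -0.000109 without mutant replicate 2, the highest library. Of the counts in TE copies alone, their share was 2.64% ± 0.0660 in the mutant and 2.84% ± 0.0979 in the wild type. Here every mutant library lay below every wild-type library (exact permutation p = 0.1, the smallest possible). The denominator differed as well, since TE copies of all kinds took 10.1% to 11.5% of the counts in the mutant and 9.05% to 9.38% in the wild type.

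The fold changes are set beside those of the other interior LTR copies as a description, without a test. Of 383 tested interior Gypsy copies 43 rose and 3 fell, with a median log2 fold change of 0.12 and an upper quartile of 0.66. Of 846 tested copies of rnd-1_family-5 28 rose and 11 fell, with a median of 0.025 and an upper quartile of 0.24. For the 183 copies described here the upper quartile was 0.31, below that of Gypsy and above that of rnd-1_family-5. Their percentile 10 was lower, at -0.71, against -0.52 for Gypsy copies and -0.49 for rnd-1_family-5 copies, whereas their lowest value was -1.18, against -2.83 and -2.65 for these. A log2 fold change of at least 1 in either direction was found in 8.20% of these 183 copies, in 21.9% of the Gypsy copies and in 8.16% of the rnd-1_family-5 copies.

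**Figure D5:**
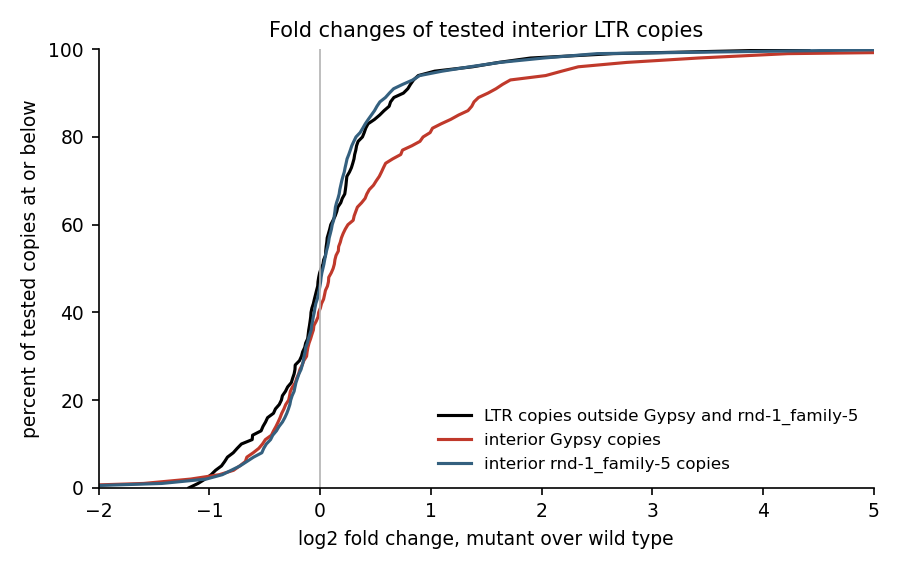
Percent of tested interior copies at or below each log2 fold change (mutant over wild type) for the 183 LTR copies outside Gypsy and rnd-1_family-5 (black), 383 Gypsy copies (red) and 846 rnd-1_family-5 copies (blue); the axis ends at -2 and 5. Between about -1 and 0 the black line lies above the others, and the red line lies lowest on the right side, with an upper quartile of 0.66 against 0.31 for the black line.

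The genes next to these copies were mostly not called either. Of 166 nuclear genes that overlap a member or lie within 500 bp of one, 162 were tested, none rose and 3 fell, a share of 1.85% called, whereas 1.30% of all tested nuclear genes rose and 1.86% fell. At an unadjusted p under 0.05 in edgeR 5 of them (3.09%) were higher and 15 (9.26%) lower, beside 5.22% and 9.99% of all tested nuclear genes. DESeq2 called 0 higher and 7 lower (4.32%), beside 2.33% higher and 4.47% lower of all nuclear genes. The shares of lowered genes were thus near those of all nuclear genes. Without wild-type replicate 2 edgeR called 1 higher and 5 lower (3.09%), and without mutant replicate 1 or wild-type replicate 1 it called 2 lower (1.23%). The shares over all nuclear genes were not taken with a library left out, so these counts have no background beside them. The lowered genes were CMT236C, CMR036C and CMR218C, whose functions the files do not name. CMT236C averaged 59.2 ± 15.3 CPM in the mutant and 124 ± 4.49 CPM in the wild type (SD, n = 3 each). It had a log2 fold change of -1.06 (edgeR adjusted p = 0.0065) and TE_homo_4578, 400 bp from it, one of -0.81 (adjusted p = 0.10). CMR036C had -0.96 (adjusted p = 0.0072) and TE_homo_3747, 419 bp from it, -0.92 (adjusted p = 0.25). CMR218C had -0.99 (adjusted p = 0.013) and TE_homo_3868, 202 bp from it, -0.83 (adjusted p = 0.46). TE_homo_3867, which overlaps TE_homo_3868 and lies nearer to CMR218C at 155 bp, had 23, 0 and 7 counts in the mutant and 0, 0 and 0 in the wild type. It had too few counts for a test, and its counts were higher in 2 of the 3 mutant libraries.

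A copy was tested more often next to the 3′ end of a gene. Within 500 bp of a gene's 3′ end 75 of 118 copies passed the filter (63.6%), within 500 bp of a gene's 5′ end 23 of 74 (31.1%), and of copies that overlap a gene 1 of 25. Across the 75 tested copies near a 3′ end, the fold change of the copy and that of its gene had a Pearson correlation of 0.46, against -0.15 across 21 copies near a 5′ end whose gene was tested. These are descriptions across copies that share libraries and in part genes. The gene models hold next to no untranslated sequence (4461 of 4463 annotated 3′ untranslated stretches have at most 4 bp), so RNA of an unannotated gene end and RNA of the copy cannot be told apart.

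With a limit of 10000 bp or 40000 bp from the chromosome ends the called copies were the same 2. Their calls could not be lost this way, since the fit per copy does not depend on the limit. TE_homo_4133 and TE_homo_4134 lie 263446 and 263491 bp from the nearest end. The wider membership at 10000 bp added no called copy. The member nearest to an end, TE_homo_2343 of rnd-1_family-13, lay 20754 bp from it and had 2, 0 and 0 counts in the mutant and 0, 0 and 0 in the wild type. Of the 21 LTR copies outside Gypsy and rnd-1_family-5 that the limit leaves out, the one nearest to it was TE_homo_2096 of rnd-1_family-34. It lay 19407 bp from the end and had 0, 3 and 0 counts in the mutant and 0, 0 and 0 in the wild type. Neither copy had enough counts for a test.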

How the data were processed

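Poly(A) RNA was sequenced from 3 Cme(z)-1 and 3 wild-type libraries with a kit that gives no strand, per the labels' protocols. The authors deposited raw counts per gene and per TE copy with their annotations; the gene annotation belongs to build ASM9120v1, per the file headers. Per the submitters' processing notes, reads passed through Trim Galore and STAR. The sources used here do not give the counting program or the treatment of reads with several matches. No column of samples was left unused (0) and 0 rows lacked a gene or copy name.

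Counts of all 7641 genes and TE copies that passed edgeR's filterByExpr (minimum count 10, minimum total 15) were scaled by TMM and fitted by edgeR 4.0.16 (quasi-likelihood test, R 4.3.3), with Benjamini-Hochberg adjustment over all of them and a threshold of 0.05. CPM are counts per 1000000 of the TMM-scaled library size. Sums per repeat family and superfamily were fitted with all genes and the remaining TE copies. Ratios of summed counts have exact binomial (Clopper-Pearson) 95% intervals, which cover counting error only. Shares of counts were compared by exact permutation (SciPy 1.17.1, Python 3.11.15). The tests were tried on simulated data. For edgeR the simulated rows were drawn independently, so counts that overlapping copies may share were not covered. Alternatives were other scalings and filters, DESeq2 1.42.0, limma voom 3.58.1, a replicate block, each library left out, other member limits and merged overlapping members. Named were called copies with their nearest gene, the 5 most abundant uncalled copies, superfamilies, families with at least 5 tested members, and copies next to the limit; others were chosen after their values were seen, as were the merged members. The members and lists were chosen with earlier results of these data known. Since nothing says that replicates were separate cultures, p-values measure only the spread between these libraries, which may be technical; replicates of a group differed beyond sampling noise (chi-square over its degrees of freedom between 16.2 and 33.3). Positions are those of the deposited annotation.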

Additional observations from a re-analysis of the deposited data

How the results depend on the processing

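The raised pair was called under the alternative scalings and filters, limma voom and the replicate block. DESeq2 called 4 copies higher (with TE_homo_2119 and TE_homo_3910), a share of 2.19% beside 9.78% of all TE copies. It called 4 lower (TE_homo_1684, TE_homo_3401, TE_homo_4578 and TE_homo_873), a share of 2.19% beside 2.53%. Merging overlapping members, added after seeing the data, left 1 raised place. With 1 library left out the copies called higher numbered 1 to 3 and those called lower 0 to 0. The pair lost TE_homo_4133 without mutant replicate 1 (1 call), and TE_homo_1024 was added without wild-type replicate 1 and TE_homo_3910 without wild-type replicate 3 (3 calls each). Same-numbered libraries had correlations of 0.022, 0.13 and 0.26 in their deviations from the group means, and not every library was closest to its own number, so the numbers were not taken to pair the samples; with the replicate block 2 copies were higher (adjusted p = 0.015 and 0.039) and 0 lower.

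The log2 fold changes of the sums turned sign when a library was left out, from -0.057 to 0.12 for Copia, -0.092 to 0.073 for Unknown, -0.062 to 0.12 for rnd-1_family-34, -0.098 to 0.068 for rnd-1_family-35 and -0.039 to 0.28 for rnd-1_family-67, and none was called; the sign turned without mutant replicate 2 (not for rnd-1_family-67), without wild-type replicate 1 and, for Unknown and rnd-1_family-35, without wild-type replicate 3. So did those of TE_homo_3626 (-0.12 to 0.21; without mutant replicate 2 or wild-type replicate 1), TE_homo_2688 (-0.21 to 0.31; mutant replicate 3 or wild-type replicate 2), TE_homo_1561 (-0.18 to 0.23; mutant replicate 2 or wild-type replicate 2) and TE_homo_4833 (-0.22 to 0.0036; mutant replicate 1). TE_homo_2688 had 0.039 with total counts alone and 0.031 with TMM on nuclear genes; TE_homo_1561 had 0.054 and 0.036 with these, 0.030 with limma voom and 0.024 with the replicate block. Total counts shifted the median of all rows by 0.060 and nuclear scaling by 0.050. The difference in the members' share of counts was -0.204 percentage points over TE counts alone and ran from -0.000109 (without mutant replicate 2) to 0.0246 with a library left out. Of the genes near members, total counts alone called 1 higher and DESeq2 7 lower, and with a library left out 0 to 1 were higher and 2 to 5 lower. For total counts alone and with a library left out, the shares over all nuclear genes were not taken. The causes were not tested. At these counts the 95% interval reached a 2-fold change in 100 of the 183 tested copies, and 272 copies were not tested.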
